A study of Homo sapiens with 72 samples.

Results

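The measurements concern 10 genes of the p53 feedback circuit in IMR-90 cells, namely MDM2, PPM1D, SESN1, SESN2, BTG2, CCNG1, PLK3, ZMAT3, ISG20L1 and IER5. They were read by 13 probes of the 41000 on the array, 1 for each of 7 genes and a pair for MDM2, SESN1 and IER5, and all 13 were among the 25246 probes with a signal well above background on at least 90% of the 72 arrays. Members were every probe carrying one of these gene names. The genes were chosen from the irradiated and bystander ratios of these same arrays, and MDM2, SESN1, PLK3, ZMAT3 and ISG20L1 also stand in the gene list that the study took over from earlier differential expression analyses. Their own ratios are therefore given as a description with no p. How many of their probes the array-wide fit called is given beside the share of all probes, and supports nothing.

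IMR-90 is a strain of normal human lung fibroblasts, used here at early passage. The culture dish had a thin Mylar base, and an inner dish with strips of thicker Mylar, which stops α-particles, was set into it. In the irradiated group the cells lay on the thin base and received 0.5 Gy of helium ions as simulated α-particles. In the bystander group the cells lay on the shielding strips, in 1 layer with the irradiated cells, and in the control group the dishes were sham-irradiated. RNA was taken at 0.5, 1 and 2 h and again at 4, 6 and 24 h in 4 independent experiments, each with all 3 groups in parallel, so that the arrays of an experiment were paired. Within an experiment the groups came from 1 pool of cells grown from a single frozen vial, and all experiments used 1 strain.

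The fibroblast markers COL1A1, COL1A2, COL3A1, DCN, LUM, PDGFRB, THY1 and VIM, 8 of 8, were detected on all 72 arrays, at mean log2 intensities of 13.22 to 17.44. Of 4 epithelial markers measured KRT8 passed the filter on dim probes, at 10.85 on all arrays, while CDH1, KRT5 and TACSTD1 were detected on 9, 1 and 44 arrays. Of 3 endothelial markers VWF passed, at 6.87, while PECAM1 and CDH5 were detected on 2 and 12 arrays. Of 3 leukocyte markers CD14 and CD3E passed, at 7.26 and 6.7, while the defining marker PTPRC was detected on 4.

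p53 is a transcription factor that is stabilised after DNA damage and switches on genes for growth arrest, repair and cell death. Several of its targets act back on it or on its signalling partners: MDM2 marks p53 for degradation, PPM1D removes activating phosphates from p53 and from the damage kinases, and cyclin G1 directs a phosphatase to MDM2. Other targets carry the response outward, among them the sestrins, which restrain mTORC1 and support antioxidant defence, and BTG2, an antiproliferative protein that promotes removal of messenger RNA tails. In fibroblasts this circuit is known to follow ionizing radiation within hours.

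p53 binds DNA through an element made of 2 copies of a 10-letter motif. The 250 bases before each transcription start listed by RefSeq for the 10 genes (17 starts, build GRCh38.p14) were searched on both strands for the p53 response element consensus with its copies adjacent and up to 3 of 20 letters different. A match stood before the later starts of MDM2, before the start of AEN, the current name of ISG20L1, and before 1 start of SESN1. None was found for the other 7 genes in this window. Of all 35116 promoter entries 4.36% held a match, and a match is a description of letters and not a shown binding site. The stretches are printed because these genes are followed below, with matches in capitals. MDM2 is shown over 120 bases at chr12:68808897-68809016 on the plus strand, with matches 94 and 56 bases before the start that differ from the consensus in 2 and 3 letters. ISG20L1 is shown over 120 bases at chr15:88621220-88621339 on the plus strand, with a match 34 bases before the start that differs in 2 letters. SESN1 is shown as its match alone, at chr6:109009018-109009037 on the minus strand, which starts 49 bases before the start and differs in 3 letters. The window and the number of letters allowed to differ were chosen with these sequences in view.
MDM2: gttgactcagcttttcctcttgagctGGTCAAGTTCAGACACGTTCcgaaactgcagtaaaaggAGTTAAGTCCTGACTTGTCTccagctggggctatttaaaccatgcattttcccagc
ISG20L1: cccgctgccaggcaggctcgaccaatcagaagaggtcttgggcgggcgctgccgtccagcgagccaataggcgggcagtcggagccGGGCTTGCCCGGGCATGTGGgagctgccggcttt
SESN1: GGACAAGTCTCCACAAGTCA

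On median the feedback genes were higher in irradiated cells than in their bystanders from 2 h on. The median log2 ratio of irradiated to bystander over the 10 genes was -0.02 at 0.5 h, 0.12 at 1 h, 0.85 at 2 h, 0.92 at 4 h, 0.63 at 6 h and 0.33 at 24 h. Without scaling between arrays it was 0.75, 0.42, 0.48 and 0.09 at 2, 4, 6 and 24 h, so the order of these times changed with the scaling. Over all 25246 probes tested the median of every comparison lay between -0.06 and 0.02. On the scaled arrays irradiated cells were higher in all 4 experiments for 9 genes at 2 h, for 10 at 4 h, for 10 at 6 h and for 7 at 24 h. The share of all probes with that pattern was not counted. Since the genes were chosen from these ratios, nothing is read from these counts. Against control, the median of the 10 genes in irradiated cells was 0.30, 0.14, 0.93, 1.11, 0.56 and 0.45 in order of time, and in bystander cells it was 0.30, 0.06, 0.02, -0.07, -0.09 and 0.08. The medians of both groups were equal at 0.5 h, but without scaling they were 0.26 in irradiated and 0.16 in bystander cells. Without scaling between arrays the bystander medians at 2, 4 and 24 h were -0.25, 0.4 and -0.08 and the irradiated medians at 2, 6 and 24 h were 0.55, 0.21 and 0.05, so the direction of these bystander medians changed with the scaling. Also without scaling, the 1 h medians were 0.37 in irradiated and 0.26 in bystander cells, and the bystander median at 6 h was -0.28. At 4 and 6 h the bystander median was 0.1 and 0.22 without experiment 4. Levels are log2 intensities after arrays were scaled to a common 75th percentile, a ratio is the difference of paired levels, and ± gives the SD over the 4 experiments. In bulk RNA, fewer cells with a transcript and less of it per cell cannot be told apart.

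Calls were made across the whole array with limma's moderated test, paired by experiment, at an adjusted p below 0.10 after Benjamini-Hochberg adjustment. In irradiated against control, 3, 0, 8, 6, 4 and 1 of the 13 member probes were called in order of time, all as higher, where 9.94%, 0%, 5.84%, 0.994%, 10.6% and 0.162% of all probes were called. In bystander against control, 2, 0, 1, 0, 0 and 0 member probes were called, all as higher, where 7.05%, 0%, 0.234%, 0.614%, 0.281% and 0% of all probes were called. In irradiated against bystander, 0, 0, 7, 0, 0 and 0 member probes were called, all as higher, where 0%, 0%, 0.0436%, 0.00792%, 0% and 0% of all probes were called. These contrasts served to choose the genes, so nothing is read from the counts. The array-wide counts of 0 stood beside 6761 probes at an unadjusted p below 0.05 for irradiated against control at 1 h, 3636 and 2816 for bystander against control at 1 and 24 h, and 532, 1240, 382 and 104 for irradiated against bystander at 0.5, 1, 6 and 24 h. Where member probes alone were at 0 calls, 4017 and 3658 of all probes were at that unadjusted p in bystander against control at 4 and 6 h and 324 in irradiated against bystander at 4 h. Member probes at that unadjusted p numbered 4 at 1 h in irradiated against control, then 2, 3, 3 and 1 at 1, 4, 6 and 24 h in bystander against control, and 0, 2, 10, 7 and 2 at 0.5, 1, 4, 6 and 24 h in irradiated against bystander. The 11 probes called between irradiated and bystander cells at 2 h were those 7, a pair for CDKN1A, the cyclin-dependent kinase inhibitor p21, 1 for the neurotrophic factor GDNF at 1.88 and 1 for the transcript THC2545454 at 0.92. The 2 probes called at 4 h were GDNF at 1.71 and BBC3, the apoptosis effector PUMA, at 1.42. The number of these calls changed when 1 experiment was left out, in fits with fewer arrays. No probe of the array was called at 2 h without experiment 1, 2 or 3 and 19 were without experiment 4, and none was called at 4 h without any 1 of the experiments.

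**Figure D1:**
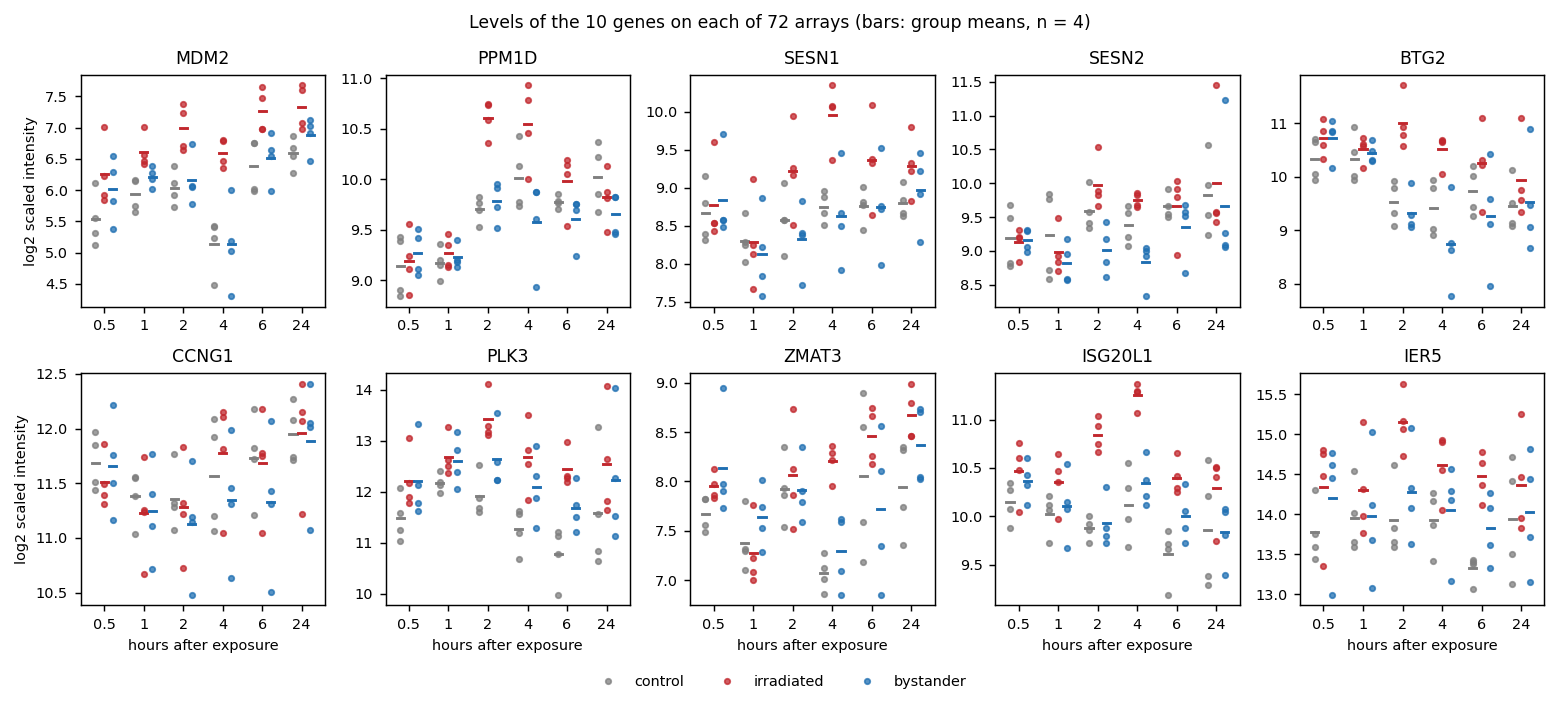
Level of each gene (log2 scaled intensity) on each of the 72 arrays at 0.5 to 24 h, with times equally spaced, points for single arrays and bars for the means of 4 control (grey), irradiated (red) or bystander (blue) arrays. At 2 h the irradiated arrays of BTG2 lie from 10.58 to 11.71, above all control and bystander arrays of that time.

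MDM2 is the ubiquitin ligase that holds p53 down. Its probe given in full was detected on 69 of 72 arrays and the second on 71. The second has 10 spots and counted as detected where at least 1 of them was, so the counts are unlike. It was the dimmer, with a mean level of 5.56 against 6.31. It failed the filter when 0.5 or more of its spots were required. The first was detected on 3 of 4 control arrays at 0.5 and 4 h. Among bystander arrays it was detected on 3 of 4 at 4 h. Ratios of this probe that use these groups are therefore not exact. The 4 control arrays at 4 h read 5.41, 5.42, 5.24 and 4.48 in experiments 1 to 4, the irradiated arrays 6.8, 6.35, 6.47 and 6.78, and the bystander arrays 6, 5.03, 5.18 and 4.3. Every irradiated array lay above every control and bystander array, while bystander and control arrays overlapped. The log2 ratio to control was 1.46 ± 0.59 (SD, n = 4) in irradiated and -0.01 ± 0.43 in bystander cells. Both values include arrays not well above background, and experiment 4 alone gave 2.3 in irradiated cells. With normexp background correction the irradiated value was 0.72, and it was 1.18 with the authors' deposited values. On this probe irradiated cells were higher than control in 4 of 4 experiments at each of the 6 times, with ratios of 0.72 ± 0.34 at 0.5 h, 0.69 ± 0.27 at 1 h, 0.95 ± 0.38 at 2 h, 0.89 ± 0.53 at 6 h and 0.74 ± 0.27 at 24 h. With normexp they were 0.45, 0.28 and 0.58 at 0.5, 1 and 2 h, and without scaling 0.57, 0.53 and 0.34 at 2, 6 and 24 h. Bystander cells were at 0.48 ± 0.48 at 0.5 h and 0.29 ± 0.09 at 24 h, each higher in 4 of 4 experiments, and between 0.12 and 0.29 at 1, 2 and 6 h. With normexp the bystander ratio was 1.14 at 0.5 h, 0.08 at 1 h, 0.72 at 2 h, -0.22 at 4 h and 0.16 at 24 h. Without scaling it was 0.48 at 1 h, -0.16 at 2 h, 0.46 at 4 h, -0.05 at 6 h and 0.13 at 24 h.

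The second MDM2 probe, printed in 10 spots per array, read 3.81, 4.49, 5.24 and 5.04 on control arrays at 4 h, 6.3, 6.93, 6.61 and 6.05 on irradiated arrays and 5.38, 5.29, 5.68 and 4.36 on bystander arrays. It also placed all irradiated arrays above the others, with a ratio to control of 1.83 ± 0.75 in irradiated and 0.54 ± 0.94 in bystander cells. The SD between its spots on an array had a median of 0.22 and a highest value of 1.19. Ratios of this probe are not exact either, since it was dim and 1 spot well above background sufficed for detection. Between irradiated and bystander cells the probes gave 1.47 ± 0.72 and 1.29 ± 0.43 at 4 h, and 0.83 ± 0.37 and 0.86 ± 0.39 at 2 h. At 4 h the first probe was detected on 3 of 4 bystander arrays, and its ratio in experiment 4 was 2.48. The authors' deposited values gave 1.14 for that probe at 4 h. With normexp background correction the ratio of irradiated to bystander cells on the first probe was -0.14 at 2 h and 0.94 at 4 h, and it was -0.68 at 0.5 h in place of 0.24. Without scaling it was 0.97 at 4 h. The causes were not tested. At 24 h the second probe gave an irradiated ratio to control of 0.55 ± 1.02, higher in 3 of 4 experiments.

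PPM1D encodes the phosphatase Wip1, which ends p53 and checkpoint signalling. At 2 h its control arrays read 9.76, 9.82, 9.69 and 9.53, its irradiated arrays 10.58, 10.73, 10.74 and 10.36 and its bystander arrays 9.91, 9.95, 9.72 and 9.52. The irradiated arrays formed a group apart, and the ratio to control was 0.90 ± 0.10 in irradiated and 0.08 ± 0.08 in bystander cells. By 4 h the irradiated ratio was 0.53 ± 0.28 and the bystander ratio -0.45 ± 0.47, which left a difference between them of 0.98 ± 0.26 with no overlap of arrays. Without scaling between arrays the irradiated ratio at 2 h was 0.52, the bystander ratio was -0.2 at 2 h and 0.02 at 4 h, and the difference at 4 h was 0.47. PPM1D was the gene with the lowest irradiated ratio at 24 h, at -0.20 ± 0.47, higher than control in 1 of 4 experiments, and at -0.6 without scaling.

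CCNG1, cyclin G1, had the lowest irradiated ratio to control of the 10 genes at 0.5, 2, 4 and 6 h. At 4 h its control arrays read 11.06, 11.2, 12.09 and 11.92, its irradiated arrays 11.81, 12.11, 12.15 and 11.05 and its bystander arrays 11.31, 11.46, 11.99 and 10.63. The groups overlapped throughout the series, and the irradiated ratio to control ran only from -0.18 to 0.21 over the 6 times. Between irradiated and bystander cells the ratio was 0.15 ± 0.08 at 2 h, 0.43 ± 0.21 at 4 h and 0.36 ± 0.18 at 6 h, higher in 4 of 4 experiments each time. Without scaling between arrays these values were 0.04, -0.07 and 0.2, and the 2 h value was 0.24 with normexp. The irradiated ratios to control then ran from -0.47 to 0.18 without scaling. Experiment 4 pulled both ratios to control down, with -1.12 in irradiated and -1.66 in bystander cells at 6 h, and the control array of that experiment enters both.

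**Figure D2:**
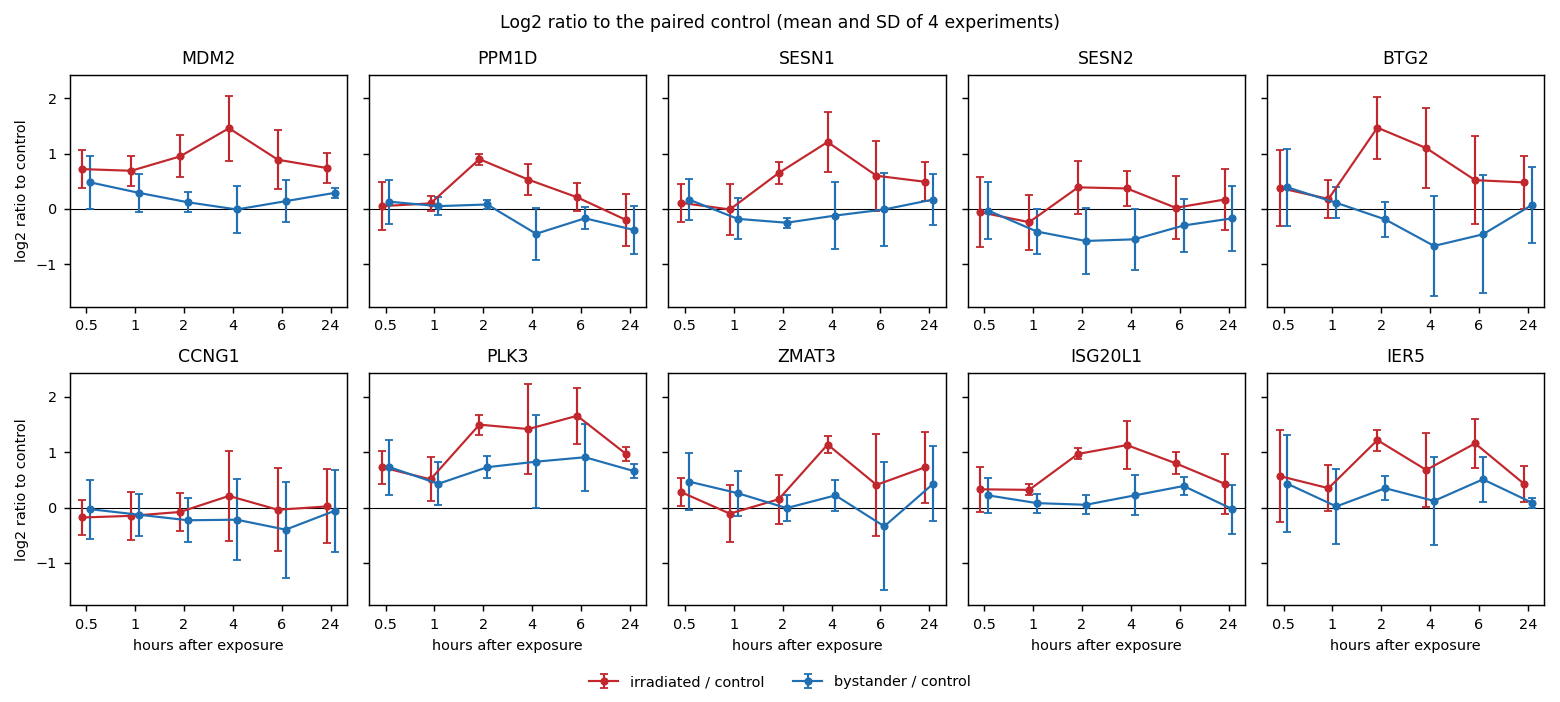
Log2 ratio to the paired control for irradiated (red) and bystander (blue) cells at 0.5 to 24 h, with times equally spaced and error bars for the SD of 4 experiments. MDM2 reaches 1.46 in irradiated cells at 4 h while its bystander ratio is -0.01, and PLK3 lies above 0 in both groups at all times. For MDM2 at 4 h, 3 of 4 control arrays and 3 of 4 bystander arrays were detected, so these ratios are not exact.

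SESN1 and SESN2 encode sestrins, stress proteins that act on mTORC1. SESN1 read 8.51, 8.67, 8.96 and 8.88 on control arrays at 4 h, 10.06, 10.35, 10.07 and 9.36 on irradiated arrays and 8.5, 8.66, 9.46 and 7.91 on bystander arrays. Irradiated arrays were all above control arrays, and 1 of them, at 9.36, lay below the highest bystander array. The irradiated ratio to control was 0.65 ± 0.20 at 2 h, 1.21 ± 0.54 at 4 h and 0.60 ± 0.63 at 6 h, and without scaling it was 0.26 at 2 h and 0.25 at 6 h. In bystander cells it was -0.25 ± 0.09 at 2 h, lower than control in 4 of 4 experiments, and -0.12 ± 0.61 at 4 h. The bystander value at 2 h was 0.05 with normexp and -0.52 without scaling, and at 4 h it was 0.35 without scaling. The direct ratio of irradiated to bystander cells at 6 h was 0.61 in experiment 1, 0.62 in experiment 2, 0.57 in experiment 3 and 0.65 in experiment 4. That gives 0.61 ± 0.03, although the ratios to control at 6 h had SDs of 0.63 and 0.66. The second SESN1 probe gave irradiated ratios of 0.61 ± 0.21 at 2 h and 1.02 ± 0.90 at 4 h, with direct ratios of 0.95 ± 0.15 and 0.94 ± 0.62.

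At 2 and 4 h the mean direct ratio of SESN2 was larger than the size of either ratio to control. Its 4 h control arrays read 9.07, 9.21, 9.56 and 9.67, its irradiated arrays 9.83, 9.65, 9.86 and 9.68 and its bystander arrays 9, 8.92, 9.05 and 8.33. Every bystander array lay below every control array and every irradiated array, and irradiated and control arrays overlapped. The ratio to control was 0.37 ± 0.31 in irradiated and -0.55 ± 0.55 in bystander cells, and the direct ratio was 0.93 ± 0.28. Without scaling between arrays the bystander ratio was -0.08 and the direct ratio 0.42. The direct ratio was 0.97 ± 0.24 at 2 h and 0.31 ± 0.17 at 6 h, the latter 0.15 without scaling. SESN3, the remaining sestrin, was not above background often enough to be tested.

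BTG2, the antiproliferative gene, had the largest direct ratio of the 10 genes at 2, 4 and 6 h. Its control arrays at 2 h read 9.32, 9.09, 9.79 and 9.92, its irradiated arrays 10.92, 10.77, 11.71 and 10.58 and its bystander arrays 9.11, 9.06, 9.88 and 9.28. No irradiated array overlapped with the other groups, which overlapped with each other. The ratio to control was 1.47 ± 0.56 in irradiated and -0.19 ± 0.32 in bystander cells at 2 h. At 4 h it was 1.10 ± 0.72 and -0.67 ± 0.91, with the bystander array below its control in 4 of 4 experiments, at -0.39, -0.15, -0.12 and -2.02. Direct ratios were 1.66 ± 0.25 at 2 h, 1.77 ± 0.63 at 4 h, 0.98 ± 0.33 at 6 h and 0.41 ± 0.22 at 24 h. Without scaling the bystander ratio was -0.47 at 2 h and -0.2 at 4 h, and the direct ratio was 1.26 at 4 h and 0.17 at 24 h. The bystander ratio at 2 h was -0.05 with normexp.

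PLK3, a polo-like kinase of the stress response, was above control on average in bystander cells at every time. At 2 h its control arrays read 11.68, 11.88, 11.61 and 12.52, its irradiated arrays 13.11, 13.17, 13.29 and 14.12 and its bystander arrays 12.23, 12.59, 12.23 and 13.54. Within each experiment the order was control, bystander, irradiated. The ratio to control was 1.5 ± 0.18 in irradiated and 0.73 ± 0.20 in bystander cells, and the direct ratio was 0.78 ± 0.24. Bystander ratios were 0.73 ± 0.50 at 0.5 h, 0.43 ± 0.39 at 1 h, 0.83 ± 0.84 at 4 h, 0.91 ± 0.61 at 6 h and 0.66 ± 0.12 at 24 h. They were above 0 in 4 of 4 experiments at each of these times but 4 h, with 3 of 4. Irradiated ratios reached 1.66 ± 0.51 at 6 h and were 0.97 ± 0.12 at 24 h. Without scaling the irradiated ratio at 24 h was 0.57, and the bystander ratio was 0.45 at 2 h and 1.29 at 4 h.

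ZMAT3, an RNA-binding zinc finger protein, stood out at 4 h. Control arrays then read 7.01, 6.86, 7.27 and 7.12, irradiated arrays 8.36, 7.95, 8.22 and 8.29 and bystander arrays 6.85, 7.09, 7.59 and 7.62. The irradiated arrays did not overlap with the others, and the ratio to control was 1.14 ± 0.16 in irradiated and 0.22 ± 0.28 in bystander cells. It was 0.15 ± 0.44 in irradiated cells at 2 h, when the direct ratio was also 0.15 ± 0.24. Without scaling the irradiated ratio to control at 2 h was -0.23, and the direct ratio at 2 h was 0.05 without scaling and -0.19 with normexp. The bystander ratio at 4 h was 0.69 without scaling and 0.04 with normexp. At 1 h the direct ratio was -0.37 ± 0.29, lower in irradiated cells in 4 of 4 experiments.

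ISG20L1, or AEN, is a nuclease of p53-dependent cell death. Its control arrays at 4 h read 9.68, 9.97, 10.29 and 10.55, its irradiated arrays 11.3, 11.37, 11.07 and 11.28 and its bystander arrays 10.38, 10.21, 10.12 and 10.67. The irradiated arrays lay above all others. The irradiated ratio to control was 0.32 ± 0.10 at 1 h, 0.97 ± 0.10 at 2 h, 1.13 ± 0.44 at 4 h and 0.80 ± 0.20 at 6 h, higher in 4 of 4 experiments each time. Bystander ratios were 0.05 ± 0.17 at 2 h, 0.22 ± 0.36 at 4 h and 0.39 ± 0.16 at 6 h. Without scaling the irradiated ratio was 0.56, 0.59 and 0.44 at 1, 2 and 6 h and the bystander ratio -0.23, 0.69 and 0.2 at 2, 4 and 6 h. With normexp the bystander ratio at 2 h was 0.14.

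IER5 is an immediate early gene, and its probes disagreed. On the probe given in full the control arrays at 2 h read 13.65, 13.82, 13.59 and 14.62, the irradiated arrays 15.06, 15.17, 14.73 and 15.63 and the bystander arrays 14.08, 14.33, 13.62 and 15.08. Each irradiated array was above its paired bystander and control array, and bystander arrays overlapped with both groups. The ratio to control was 1.22 ± 0.19 in irradiated and 0.35 ± 0.22 in bystander cells, with a direct ratio of 0.87 ± 0.24. The bystander ratio was 0.08 without scaling and 0.16 with normexp. The other probe gave 0.03 ± 0.73 and 0.17 ± 1.2, with a direct ratio of -0.14 ± 0.59. Its control arrays at 2 h were 12.46, 12.74, 14.61 and 15.03, a wider range than on the first probe. Over the 24 irradiated ratios the probes had the same sign in 9, against 23 for MDM2 and 21 for SESN1. Statements on IER5 therefore hold for 1 of its probes.

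**Figure D3:**
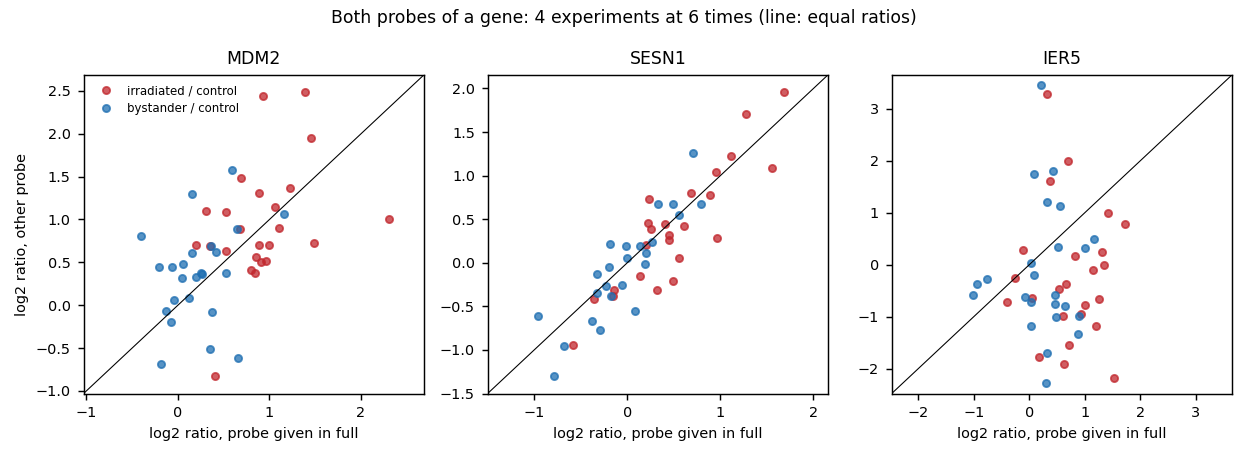
Log2 ratio to control on both probes of MDM2, SESN1 and IER5, with the probe given in full on the x axis, the other probe on the y axis and a point for each of 4 experiments at 6 times in irradiated (red) and bystander (blue) cells. Points of SESN1 follow the line of equal ratios with a median absolute difference of 0.21 in irradiated cells, and those of IER5 do not, with 1.28.

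Order of the genes changed with time. In irradiated cells against control the highest mean ratio was that of PLK3 at 0.5, 2, 6 and 24 h and that of MDM2 at 1 and 4 h. The MDM2 mean at 4 h used controls of which 3 of 4 were detected, with a ratio of 2.3 in experiment 4. PLK3 was ahead of MDM2 at 4 h after quantile normalization, with normexp and in the authors' table, and at 1 h with normexp, while MDM2 led at 0.5 h in the authors' table. After quantile normalization BTG2 and PLK3 were both at 1.5 at 2 h. At 4 h the means ran from 0.21 for CCNG1, 0.37 for SESN2 and 0.53 for PPM1D through 0.68 for IER5, 1.10 for BTG2, 1.13 for ISG20L1, 1.14 for ZMAT3 and 1.21 for SESN1 to 1.42 for PLK3 and 1.46 for MDM2. With SDs from 0.16 to 0.82 in this list, neighbours in the order differed by less than their spread. From 2 to 4 h the irradiated mean differed by more than the larger of the SDs of both times for PPM1D, SESN1 and ZMAT3. It was lower at 4 h for PPM1D, at 0.53 against 0.90, but without scaling the values were 0.5 and 0.52. It was higher at 4 h for SESN1, at 1.21 against 0.65, and for ZMAT3, at 1.14 against 0.15. For the other 7 genes the difference was smaller than that SD. No test was made between times, since the times lay on separate slides.

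**Figure D4:**
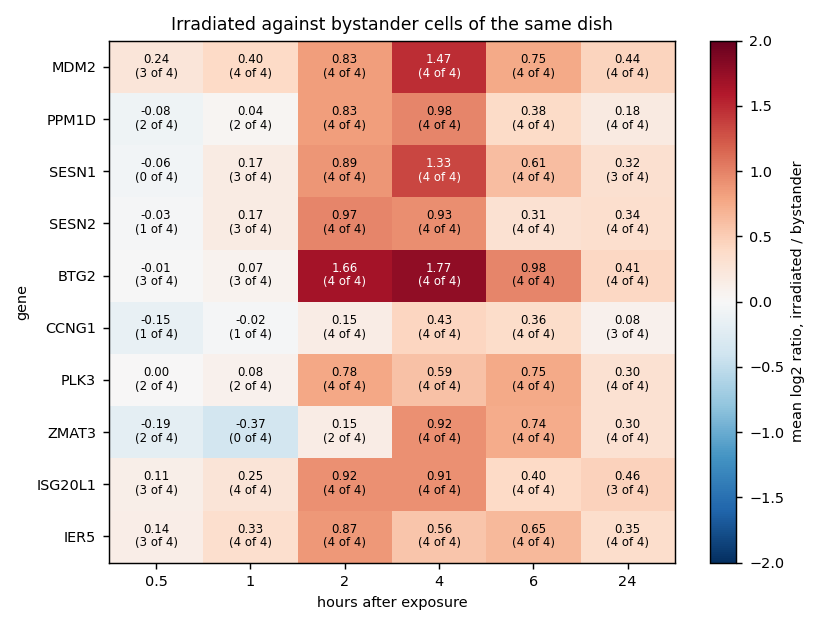
Mean log2 ratio of irradiated to bystander cells for the 10 genes (rows) at 6 times (columns, in hours), coloured from -2 to 2, with the number of experiments out of 4 in which irradiated cells were higher in brackets. BTG2 at 4 h has the largest mean at 1.77, and at 4 and 6 h all 10 genes are higher in 4 of 4 experiments on the scaled arrays. The genes were chosen from these ratios, and the share of all probes with that pattern was not counted.

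Each time point used 3 slides of 4 arrays, and each slide held more than 1 group. Experiments 1 and 3 at 0.5 h and 1 and 4 at the other times had their 3 arrays on 1 slide. Within those slides the direct ratio at 4 h was 1.64 for MDM2, 1.13 for PPM1D, 1.5 for SESN1, 1.09 for SESN2, 2.17 for BTG2, 0.46 for CCNG1, 0.64 for PLK3, 1.09 for ZMAT3, 0.76 for ISG20L1 and 0.36 for IER5 (n = 2 each). All 10 were above 0, as they were over 4 experiments on the scaled arrays. Without scaling the means over 4 experiments were -0.07 for CCNG1, 0.06 for IER5 and 0.09 for PLK3. Other within-slide means on the scaled arrays differed more. In irradiated against control at 6 h they were 0.09 for SESN1, 0.11 for BTG2 and -0.02 for ZMAT3, where 4 experiments gave 0.6, 0.52 and 0.41. For MDM2 and PLK3 they were 1.23 and 2.02, where 4 experiments gave 0.89 and 1.66. The direct ratio of ZMAT3 at 2 h was -0.05 within slides. These means also leave out experiments, so an effect of the slide cannot be told apart. With the slide as a further block, no probe of the array, and so no member probe, was called between irradiated and bystander cells at 2 h, with 4 residual degrees of freedom in place of 6.

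Differences between irradiated and bystander cells were also compared across genes. Over the 24 pairs of irradiated and bystander arrays, Pearson's r with MDM2 was 0.72 for SESN2, 0.7 for BTG2 and for SESN1, 0.67 for PPM1D, 0.64 for CCNG1, 0.52 for ISG20L1, 0.43 for PLK3, 0.37 for ZMAT3 and 0.3 for IER5. Between the 45 pairs formed by the 10 genes r ran from 0.04 to 0.91 with a median of 0.64. Outside the 10 genes, the 5 most like MDM2 among 19102 probes with a RefSeq symbol were TP53INP1 at 0.87, BLOC1S2 at 0.78, GDF15 at 0.77, ANKRA2 at 0.77 and BBC3 at 0.76, the last on another probe than the one called at 4 h. The arrays of a pair and of a time share experiment and slides, and these values are a description.

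Other genes of the p53 pathway were taken from a list of 36, of which EDA2R and SFN did not pass the filter on dim probes. Of the 34 tested, 4, 0, 10, 10, 15 and 1 were called higher in irradiated against control from 0.5 to 24 h and none was called lower by limma, with 11, 10, 21, 20, 20 and 10 at an unadjusted p below 0.05. Of all probes 9.94%, 0%, 5.84%, 0.994%, 10.6% and 0.162% were called there and 26.2%, 26.8%, 22.1%, 15.1%, 25.2% and 13.2% were at that unadjusted p, so the list was near the background at 0.5 and 1 h. In bystander cells 4, 0, 0, 0, 1 and 0 were called higher and none lower, with 9, 2, 5, 7, 7 and 5 at that unadjusted p, where 7.05%, 0%, 0.234%, 0.614%, 0.281% and 0% of all probes were called and 22.4%, 14.4%, 15.4%, 15.9%, 14.5% and 11.2% were at that p. Without scaling 7 genes of the list were called in bystander cells at 4 h and 1 at 0.5 h, where 14.7% and 1% of all probes were called, and at 0.5 h none was called without experiment 1 or 2. Each gene of the list was represented by its brightest probe, so the BBC3 probe called at 4 h is not in these counts, and the BBC3 probe that is was at 0.42 and not called. Between irradiated and bystander cells CDKN1A at 2 h was the 1 call, and 0, 2, 11, 17, 18 and 8 genes had an unadjusted p below 0.05, as did 2.11%, 4.91%, 1.12%, 1.28%, 1.51% and 0.412% of all probes. That call was lost without scaling, without the filter on dim probes, without the replicate block, with the slide as a block and without experiment 1, 2 or 3. The median log2 ratio of the list in irradiated cells was 0.28 at 2 h, 0.54 at 4 h and 0.60 at 6 h, and in bystander cells it was 0.14, 0.03 and 0.16. At 6 h in irradiated cells 15 of the 23 targets were called and 0 of the 11 regulators by limma, with 18 and 2 at an unadjusted p below 0.05, where 10.6% of all probes were called. The difference between targets and regulators was not tested.

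GDF15, a stress cytokine, had an irradiated ratio of 2.86 ± 0.96 at 4 h (adjusted p = 0.0158, limma) and a bystander ratio of 1.31 ± 1.47 (adjusted p = 0.204, limma). CDKN1A was at 2.21 ± 1.06 (adjusted p = 0.0158, limma) and 0.18 ± 0.92 (adjusted p = 0.794, limma), and its direct ratio at 2 h was 1.5 ± 0.35 (adjusted p = 0.0125, limma). GADD45A, a growth arrest gene, rose to 1.70 ± 0.66 in irradiated cells at 4 h (adjusted p = 0.00791, limma), and in bystander cells it was 0.93 ± 0.57 (adjusted p = 0.135, limma). Both GDF15 and GADD45A were also called higher at 0.5 h, at 1.36 ± 0.84 and 1.28 ± 0.48 in irradiated and 1.38 ± 0.87 and 1.16 ± 0.52 in bystander cells. Without experiment 2 no probe of the array was called at 0.5 h in either comparison, and without experiment 1 no gene of the list was called in bystander cells. MDM4, the partner of MDM2 in holding p53 inactive, was not called at any time in any comparison, with 0.43 ± 0.43 in irradiated and 0.34 ± 0.25 in bystander cells at 4 h.

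The list had 10 genes called at 4 h in irradiated cells, but 1 without experiment 1, 3 with no filter on dim probes, 4 without scaling and 6 without the replicate block, where 0.0832%, 0.127%, 0.658% and 0.107% of all probes were called, and which genes these were was not counted. Besides GDF15, CDKN1A and GADD45A, RRM2B, a ribonucleotide reductase subunit, and POLH, a translesion polymerase, were both at 1.21, with SDs of 0.61 and 0.46. C12orf5, or TIGAR, was at 1.17 ± 0.22, the death receptors FAS and TNFRSF10B at 1.16 ± 0.22 and 1.05 ± 0.52, the mitochondrial reductase FDXR at 1.04 ± 0.60 and the apoptosis inhibitor TRIAP1 at 0.81 ± 0.05. Bystander ratios of these 7 genes at 4 h ran from -0.09 for FDXR to 0.55 for RRM2B, and none was called on the scaled arrays. The 7 genes were picked by their irradiated ratio at 4 h, and both ratios use the same control arrays. Nothing is therefore read from their lower bystander ratios.

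**Figure D5:**
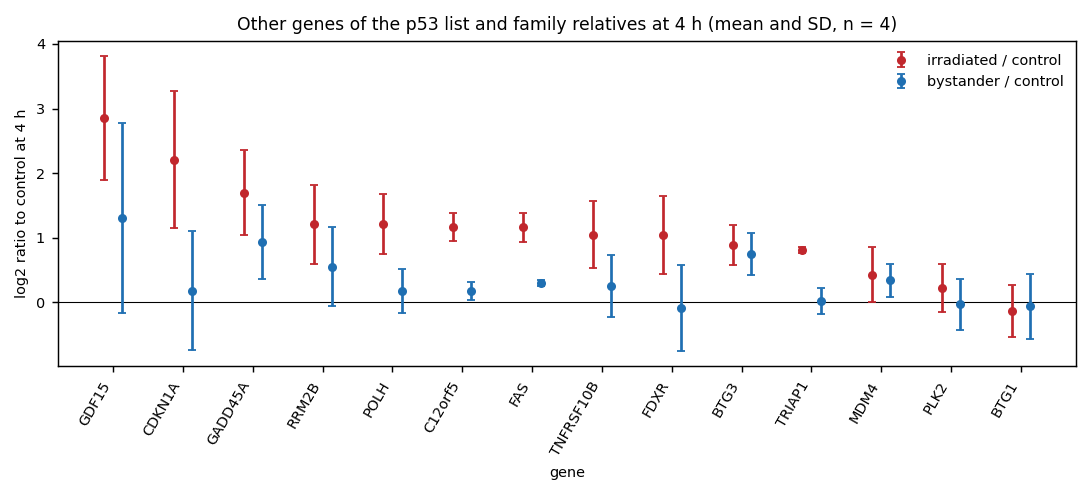
Log2 ratio to control at 4 h for other genes of the p53 list and relatives of the members, with points for means and bars for the SD of 4 experiments, in irradiated (red) and bystander (blue) cells. GDF15 and CDKN1A are highest in irradiated cells at 2.86 and 2.21, and BTG3 is similar in both groups at 0.89 and 0.75. Genes shown that were not fixed from the lists were picked by their irradiated ratio at 4 h.

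Relatives are genes of the same families as the members. Of 20 relatives tested, 3, 0, 3, 1, 1 and 0 were called higher and 0, 0, 2, 0, 1 and 0 lower in irradiated against control from 0.5 to 24 h, and 0 were called between irradiated and bystander cells at any time by limma, with 0, 0, 1, 2, 0 and 1 at an unadjusted p below 0.05. In irradiated against control 9.94%, 0%, 5.84%, 0.994%, 10.6% and 0.162% of all probes were called. There 7, 7, 10, 6, 8 and 2 relatives were at an unadjusted p below 0.05, and 26.2%, 26.8%, 22.1%, 15.1%, 25.2% and 13.2% of all probes. In bystander against control 3, 0, 0, 1, 0 and 0 were called higher, and PLK1, a mitotic kinase, was called lower at 0.5 h, where 7.05%, 0%, 0.234%, 0.614%, 0.281% and 0% of all probes were called. At an unadjusted p below 0.05 were 9, 8, 7, 4, 6 and 4 relatives there, and 22.4%, 14.4%, 15.4%, 15.9%, 14.5% and 11.2% of all probes. Between irradiated and bystander cells 2.11%, 4.91%, 1.12%, 1.28%, 1.51% and 0.412% of all probes were at that p. Medians of the relatives in irradiated against control lay between -0.23 and 0.01. PLK2, the nearest relative of PLK3, was at 0.22 ± 0.37 in irradiated and -0.03 ± 0.39 in bystander cells at 4 h and was not called. BTG1, a relative of BTG2, was lower in irradiated cells at 2 h, at -0.45 ± 0.10 (adjusted p = 0.0734, limma), where BTG2 was at 1.47, and its bystander ratio was -0.41 ± 0.30 (adjusted p = 0.176, limma). BTG3 was called higher in both groups at 4 h, at 0.89 ± 0.31 in irradiated (adjusted p = 0.0301, limma) and 0.75 ± 0.33 in bystander cells (adjusted p = 0.0808, limma), with a direct ratio of 0.13 ± 0.14.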

How the data were processed

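Each RNA sample was run on its own one-colour array covering the human genome. The authors extracted the scans with Agilent Feature Extraction 9.1.3.1, and the deposited intensity of each spot is background-subtracted and not normalized between arrays, per the file headers. The authors' table of log2 values, deposited beside the scans, was used as an alternative after the same scaling to the 75th percentile.

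Spots called non-uniform by the scanner software were treated as missing and control spots were dropped. Arrays were scaled to the same 75th percentile, intensities under 1 were set to 1, log2 was taken and spots of a probe were averaged. Following the study's methods, a probe was left out where more than 10% of the 72 arrays were dim or non-uniform, which left 25246 of 41000 probes. An array counted as detected where at least 1 spot was well above background and uniform. This rule was set after seeing that requiring 0.5 or more of its spots, which left 25238 probes, removed the MDM2 probe with 10 spots. The share of spots well above background ran from 65.7% to 76.9% per array, and no member spot was saturated. The number of arrays limits the precision.

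For each time, limma 3.58.1 in R 4.3.3 was fitted to 12 arrays with treatment and experiment as terms (6 residual degrees of freedom) and an intensity trend, with Benjamini-Hochberg adjustment over all probes. The methods state that the arrays of an experiment came from 1 pool of cells, so the replicate number was used as a block. Deviations from the group means correlated above 0.1 for 68 of 72 same-numbered pairs, and the medians per time were 0.36 to 0.63.

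The genes named are the 10 members, each given in full for its brightest probe, 8 genes fixed from the lists, the 8 others with the largest ratios called at 4 h in irradiated cells, and the 5 most like MDM2. The results of 1 gene that this rule names are not reported here, and it stays in the counts of its list. Which probes count as having a gene symbol (19102 with a RefSeq match), on which the last 5 depend, and the form of the promoter search were settled after the data had been seen. Members, lists and rules were chosen with earlier results of these data known. Arrays from 1 to 24 h carry an older annotation than those at 0.5 h, where ISG20L1 is AEN, and probes were joined by probe name. Promoter sequences are from RefSeq. Scaling, background correction, source of values, filter, block, slide, trend and each experiment left out were tried as alternatives.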

Additional observations from a re-analysis of the deposited data

Results flagged for a closer look

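Among the 180 sets of 4 paired ratios of the 10 genes, 9 held an experiment far from the other 3. Chance gives about 1 in 20, so the number flagged is no more than chance gives. The comparisons share arrays, so the sets are not independent. BTG2 did so in experiment 4 at 6 h in irradiated against control, at -0.67 where the others were 0.88 to 0.95. It did so again in bystander against control, at -2.02 at 4 h and -2.05 at 6 h, where the others lay between -0.39 and 0.23. CCNG1 was at -0.66 in experiment 3 at 0.5 h in irradiated against control. ISG20L1 was at 0.3 in experiment 4 at 2 h in bystander against control and at -0.07 in experiment 2 at 0.5 h in irradiated against bystander. SESN2 was at 0.25 in experiment 2 at 0.5 h and at 1.34 in experiment 4 at 4 h in irradiated against bystander, and ZMAT3 was at -0.99 in experiment 4 at 0.5 h in the same comparison. No explanation was tested for these values.

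For 3 genes all 4 irradiated arrays lay above their paired controls while all 4 bystander arrays lay below. The share of all probes with this pattern was not counted, so it is not shown to be particular to these genes. Some of the differences were near 0, as for SESN2 at 4 h. Its ratio was 0.01 in experiment 4 in irradiated and -0.07 in experiment 1 in bystander cells. The irradiated and bystander ratios differed by 1.77 for BTG2 at 4 h, by 0.9 for SESN1 at 2 h and by 0.92 for SESN2 at 4 h. With normexp the bystander ratio of SESN1 at 2 h was 0.05, on the other side of 0. Without scaling the differences were 1.26 for BTG2 and 0.42 for SESN2, with bystander ratios of -0.2 and -0.08. The genes were chosen with these ratios known, so the difference was not tested.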

How the results depend on the processing

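Counts of member probes called moved with several choices, and so did the share of all probes called, given beside them in order of time where 6 values stand. The causes were not tested except where named. Without scaling between arrays the median of all probes shifted to between -0.48 and 0.42 by comparison, and member calls in irradiated against control were 0, 3, 3 and 0 at 0.5, 2, 4 and 24 h, in bystander against control 0, 0 and 2 at 0.5, 2 and 4 h, and in irradiated against bystander 1 at 2 h. Of all probes 0.816%, 0%, 27.4%, 0.658%, 17.6% and 0.305% were called there in irradiated against control, 1%, 0%, 0%, 14.7%, 0.214% and 0.103% in bystander against control and 0.00792% in irradiated against bystander at 2 h. Single genes turned too: PPM1D in bystander against control at 4 h went from -0.45 to 0.02 and CCNG1 in irradiated against bystander at 4 h from 0.43 to -0.07. Quantile normalization gave 1 in bystander against control at 0.5 h, with 8.14% of all probes. Normexp background correction gave 1 and 5 in irradiated against control at 0.5 and 2 h, 1 in bystander against control at 0.5 h and 4 in irradiated against bystander at 4 h, with 4.02%, 2.11%, 8.29% and 0.0911% of all probes. With no filter on dim probes, where more probes were tested, irradiated against control gave 1 and 0 at 0.5 and 4 h, bystander against control 0 at 0.5 h and irradiated against bystander 1 at 2 h. Of all probes 1.65%, 0%, 2.27%, 0.127%, 1.67% and 0.0317% were called there in irradiated against control, 1.47%, 0%, 0.31%, 0.0829%, 0.00488% and 0% in bystander against control and 0.00488% in irradiated against bystander at 2 h. Without the intensity trend bystander against control gave 0 at 2 h, with 0.099% of all probes. Requiring 0.5 or more of the spots of a probe, a choice added after seeing the data, gave 1 in bystander against control at 0.5 h, with 6.96% of all probes.

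With no replicate block, the paired structure was ignored, and irradiated against control gave 0, 0, 1, 2 and 0 at 0.5, 2, 4, 6 and 24 h, bystander against control 0 and 0 at 0.5 and 2 h, and irradiated against bystander 0 at 2 h. Without that block 0.0555%, 0%, 0.00792%, 0.107%, 0.19% and 0% of all probes were called in irradiated against control, 0.0792%, 0%, 0%, 0.0277%, 0% and 0% in bystander against control and 0% in irradiated against bystander. With the slide as a fixed block beside the replicate block, which leaves 4 residual degrees of freedom, irradiated against control gave 0, 1, 4 and 0 at 0.5, 1, 2 and 24 h, bystander against control 0 and 0 at 0.5 and 2 h, and irradiated against bystander 0 at 2 h. Of all probes 1.22%, 1.78%, 0.123%, 2.29%, 9.15% and 0.00396% were called there in irradiated against control, 0.586%, 0%, 0%, 0.0792%, 0% and 0.0198% in bystander against control and 0% in irradiated against bystander at 2 h. The paired fit left out each experiment in turn, with fewer arrays. In irradiated against control the counts then ran from 0 to 3 at 0.5 h, from 4 to 9 at 2 h, from 0 to 6 at 4 h, from 3 to 4 at 6 h and from 0 to 0 at 24 h. The 4 h count was 0 without experiment 1, 3 without experiment 2 and 2 without experiment 3. In bystander against control they ran from 0 to 1 at 0.5 h, from 0 to 2 at 2 h, from 0 to 1 at 4 h and from 0 to 1 at 6 h. In irradiated against bystander at 2 h they ran from 0 to 8, with 0 without experiment 1, 2 or 3 and 8 without experiment 4. Without experiments 1, 2, 3 and 4 in turn, the shares of all probes called at 0.5 h were 1.95%, 0%, 5.77% and 1.37% in irradiated and 0.0119%, 0%, 4.57% and 2.49% in bystander against control. At 2 h they were 0.111%, 0.099%, 0.242% and 19.5%, then 0.0317%, 0%, 0.0713% and 12.6%, and 0%, 0%, 0% and 0.0753% in irradiated against bystander. At 4 h they were 0.0832%, 1.32%, 0.499% and 0.531%, then 0.0555%, 0.0396%, 0.388% and 0.257%, and at 6 h 2.7%, 5.16%, 7.38% and 0.887%, then 0%, 0%, 0.903% and 0%. At 24 h all were 0%.

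The median ratio of irradiated to bystander over the 10 genes was 0.75 at 2 h, 0.42 at 4 h and 0.48 at 6 h without scaling, and between 0.73 and 0.89, between 0.89 and 0.99 and between 0.51 and 0.63 under the other alternatives. Against control the irradiated medians at 2, 6 and 24 h went from 0.93 to 0.55, from 0.56 to 0.21 and from 0.45 to 0.05 without scaling, and the bystander medians at 2, 4 and 24 h from 0.02 to -0.25, from -0.07 to 0.4 and from 0.08 to -0.08. The irradiated median at 1 h went from 0.14 to 0.37 without scaling, and from 0.04 to 0.2 under the other alternatives. Bystander medians at 0.5, 1 and 6 h went from 0.3 to 0.16, from 0.06 to 0.26 and from -0.09 to -0.28 without scaling. Under the other alternatives the bystander medians ran from -0.03 to 0.12 at 2 h, from -0.2 to 0.1 at 4 h, from -0.26 to 0.22 at 6 h and from -0.03 to 0.29 at 24 h, the highest at 4, 6 and 24 h without experiment 4. Of 180 ratios of single genes 49 moved by more than the SD over experiments without scaling, 17 with normexp and 6 with the slide block.

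Of the 34 genes of the p53 list, counts called moved as follows, beside the shares of all probes given above. Without scaling irradiated against control gave 2, 4 and 0 at 0.5, 4 and 24 h, bystander against control 1, 7 and 0 at 0.5, 4 and 6 h and irradiated against bystander 0 at 2 h. Quantile normalization gave 7 in irradiated against control at 0.5 h and 2 in irradiated against bystander at 2 h, with 11.9% and 0.0515% of all probes. Normexp gave 5 and 4 in irradiated against bystander at 2 and 4 h, with 0.0594% and 0.0911%, and the authors' deposited values gave 3 in irradiated against control at 24 h, with 0.194%. With no filter on dim probes irradiated against control gave 2, 3, 9 and 0 at 0.5, 4, 6 and 24 h, bystander against control 2 and 0 at 0.5 and 6 h and irradiated against bystander 0 at 2 h. Without the intensity trend irradiated against control gave 0 at 24 h, with 0.099%. With no replicate block irradiated against control gave 0, 0, 6, 6 and 0 at 0.5, 2, 4, 6 and 24 h, bystander against control 0 and 0 at 0.5 and 6 h and irradiated against bystander 0 at 2 h. With the slide beside the replicate block irradiated against control gave 2, 1, 3 and 0 at 0.5, 1, 2 and 24 h, bystander against control 1 and 0 at 0.5 and 6 h and irradiated against bystander 0 at 2 h. With an experiment left out, irradiated against control ran from 0 to 5 at 0.5 h, from 2 to 20 at 2 h, from 1 to 13 at 4 h, from 11 to 14 at 6 h and from 0 to 0 at 24 h, with 2 at 2 h without experiment 1, 2 or 3 and 20 without experiment 4, where 19.5% of all probes were called, and 1 at 4 h without experiment 1. Bystander against control ran from 0 to 5 at 0.5 h, from 0 to 7 at 2 h, with 7 without experiment 4, where 12.6% of all probes were called, from 0 to 1 at 4 h and from 0 to 1 at 6 h, and irradiated against bystander from 0 to 2 at 2 h. MDM2, near background on some arrays, and SESN3, which was not tested, are limited by signal.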
